A study of Homo sapiens and Mus musculus with 30 samples.

Results

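Ribose methylation was followed at 5 sites in 28S ribosomal RNA (rRNA), across mouse brain, mouse stem cells and human pluripotent cells. The 5 sites are among those catalogued in and around the peptidyl transferase region. They are 28S-Um4276, 28S-Cm4426, 28S-Gm4464, 28S-Gm4469 and 28S-Am4493, shortened to Um4276 and so on below, where the letter is the methylated base and the digits are the number used in published target tables. The rule that chose them names positions in domain V of 28S rRNA and uses no measured value. It was set with earlier results of these data known. The 5 are part of 109 catalogued methylation sites, of which 66 lie in 28S rRNA. Of these, Gm4340, Gm4362 and Um4468 lie between the first and the last of the 5 and were not chosen. The other 15 sites of 28S rRNA with numbers above 4000 served as a comparison list.

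A 2′-O-methyl group on the ribose of an rRNA nucleotide is placed during ribosome assembly, in most cases by fibrillarin, a methyltransferase that a box C/D small nucleolar RNA (snoRNA) guides to its target by base pairing. Domain V of the large subunit rRNA holds the peptidyl transferase centre, where the ribosome joins amino acids, and the A-loop, which pairs with the end of the incoming aminoacyl-tRNA. Methyl groups are dense in this conserved region.

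The published guides are SNORD41 for Um4276 (chr19:12706449-12706518), SNORD49A (chr17:16440036-16440106) and SNORD49B (chr17:16439509-16439556) for Cm4426, SNORD69 for Gm4464 (chr3:52692736-52692812) and SNORD29 for Am4493 (chr11:62853904-62853968), with coordinates from RefSeq on GRCh38.p14. Gm4469 is the guanosine of the A-loop. In yeast its counterpart is methylated without a guide RNA by the protein Spb1, whose human homologue is FTSJ3 (chr17:63819433-63827663).

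Each site is shown with the 20 bases on either side, read from the human 28S rRNA of the deposited files, 5′ to 3′, with the methylated base in capitals. The windows are shown because the score of a site is set by the read ends on its neighbours.
28S-Um4276: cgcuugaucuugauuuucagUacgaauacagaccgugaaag
28S-Cm4426: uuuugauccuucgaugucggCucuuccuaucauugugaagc
28S-Gm4464: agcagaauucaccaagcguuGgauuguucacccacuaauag
28S-Gm4469: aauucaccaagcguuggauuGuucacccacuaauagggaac
28S-Am4493: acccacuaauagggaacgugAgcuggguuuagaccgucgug

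In the numbering of the deposited sequences the sites stand at human 28S positions 4306, 4456, 4494, 4499 and 4523, and at mouse positions 3959, 4109, 4147, 4152 and 4176, all in mature rRNA. All 41 bases of each window were the same in mouse, and so were all 218 bases between the first and the last site. Gm4464 lies 5 nucleotides before Gm4469, and Am4493 lies 24 nucleotides after it. Um4468, another catalogued site of the A-loop, is the base just before Gm4469, so each of Gm4464, Um4468 and Gm4469 is a neighbour in the score of the others. The 5 sites lie on 1 RNA and are not replicates of a condition.

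RiboMeth-seq was used, in which alkali breaks total RNA and the sequenced fragments are tallied by where they start and stop. Methylated riboses resist the break, and the deposited score is a fraction, 1 minus the read ends at a site over the weighted mean of its 6 neighbours on each side. A score near 1 means almost no read ends at the site, and a score of 0 means no protection. The 30 samples held 93 libraries, which the labels call biological triplicates.

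The mouse samples were wild type and comprised cortex from 5 embryonic days (E11, E12.5, E14, E15.5 and E17), from birth (P0) and from the adult, the hippocampus, cerebellum and olfactory bulb at P0 and in the adult, and the embryonic stem cell line TCF2.2. Strain, sex and adult age are not given in the labels. The human samples came from KOLF2, an induced pluripotent line, and from H9 and HUES4, which are embryonic stem cell lines, all labelled wild type, each undifferentiated and after directed differentiation with the STEMdiff Trilineage kit to mesoderm and to endoderm. Of these, H9 was also taken through neural induction, differentiation and maturation to early and then late neural precursors and to mature neurons. It was further edited with CRISPR-Cas9 to knock out SNORD52, or given a constitutively expressed SNORD52 transgene, with 2 samples of each that are called clones here. The labels do not say how these lines were derived, nor whether germ layer or neural cultures were pure, and the files hold rRNA alone, so no marker genes could be looked at.

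Human libraries held 1997206 to 40895844 read ends and mouse libraries 1536440 to 41455445. At the 5 sites the neighbours carried at least 156 read ends per position in human and 69.4 in mouse libraries, with medians of 2743 and 2329. Counting error at these scores had a median of 0.00502 in human libraries and of 0.00351 in mouse libraries, against a median SD between libraries of 0.0189 and 0.00983. Positions outside the catalogue, the background of the assay, averaged 0.135 to 0.213 per human and 0.120 to 0.177 per mouse library. As a check of the labels, 28S Um3904, the target of SNORD52, stood at 0.0302 and 0.0158 in the knock-out clones, at 0.893 and 0.895 in the overexpression clones, and at 0.825, 0.598 and 0.721 in unedited H9, HUES4 and KOLF2. Its difference was -0.692 ± 0.0717 (SE; limma, adjusted p = 4.21e-06) with knock-out and 0.179 ± 0.0717 (adjusted p = 0.0476) with overexpression. The unedited means lay far apart, so the check is clear for the knock-out labels and weak for overexpression.

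The libraries carried 6 index sequences in 2 sets of 3, numbered 1 to 6 here. Undifferentiated HUES4 and KOLF2, late precursors, mature neurons and cortex from E12.5 to P0 carried indexes 1, 3 and 5. Undifferentiated H9 had 3 libraries of each set, and all other samples carried indexes 2, 4 and 6. The median score over all tested sites also moved between samples, from 0.936 to 0.952 in pluripotent cells, 0.894 to 0.913 in both germ layers, 0.902 and 0.907 in the overexpression clones, 0.853 in E11 cortex and 0.965 to 0.983 in later cortex. Comparisons below are therefore also given with the libraries of H9 that carry the same indexes, or after each score was divided by its library's upper quartile, where a call made or missed changes. A score that stays the same rises by the division alone where the upper quartile is lower, and falls where it is higher. Signs that turn after it therefore need not be changes at the site.

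The column headers also carry an L number, whose meaning the sources used here do not state, with 10 such numbers in human and 4 in mouse. Cortex from E12.5 to P0 shared 1 number, the 4 adult regions shared 1, and E11 cortex and the newborn hippocampus, cerebellum and olfactory bulb shared 1. In all other comparisons the groups carried different numbers: germ layers, neural stages and edited clones against undifferentiated cells, mesoderm against endoderm, E11 and adult against the cortex between, birth against adult, and stem cells against E11. There the L number and the group cannot be told apart, also among libraries of the same indexes. The undifferentiated lines carried different numbers. All endoderm shared 1, whereas H9 mesoderm carried another number than HUES4 and KOLF2 mesoderm.

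All 5 sites had a mean score of at least 0.860 in both species. Um4276 had the lowest mean and the widest SD in both, close to the SD of Gm4469 in human, and in mouse its spread overlapped that of Gm4464. Over the 16 human samples the mean score was 0.860 ± 0.0684 (SD) at 28S-Um4276, 0.909 ± 0.0660 at 28S-Gm4469, 0.927 ± 0.0280 at 28S-Cm4426, 0.934 ± 0.0223 at 28S-Gm4464 and 0.974 ± 0.0124 at 28S-Am4493. Am4493 was the highest of the 5 in 43 of 51 human libraries, and Um4276 was the lowest in 32. The spreads of the middle 3 overlapped, so their order is not settled.

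Over the 14 mouse samples the means were 0.884 ± 0.123 at Um4276, 0.922 ± 0.0527 at Gm4464, 0.952 ± 0.0599 at Gm4469, 0.969 ± 0.0345 at Cm4426 and 0.973 ± 0.0213 at Am4493. Gm4464 was the lowest of the 5 in 21 of 42 mouse libraries and Um4276 in 19, and the median library scored 0.935 and 0.940. The low mean of Um4276 came with its values in stem cells, 0.610, and E11 cortex, 0.650. Cm4426, Gm4469 and Am4493 shared the top place, in 12, 15 and 15 libraries, and did not differ beyond their spread. The lowest single values of Um4276 were 0.545 in a mouse stem cell library and 0.633 in a human overexpression library.

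**Figure D1:**
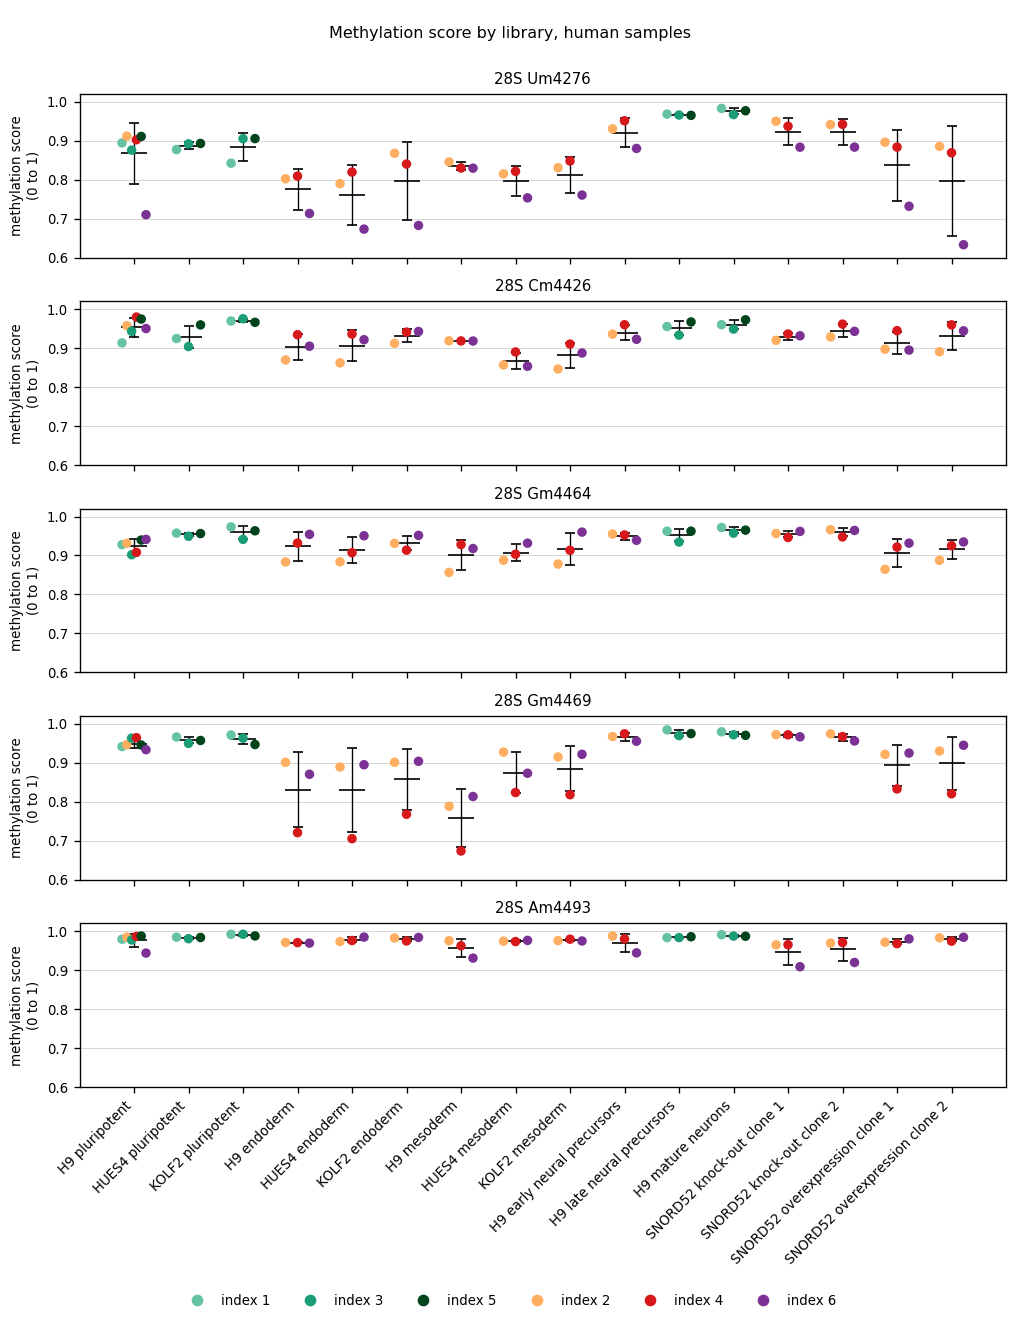
Methylation score (fraction, vertical axis) of the 5 sites in each human sample, with 1 point per library and a bar at the sample mean. Um4276 and Gm4469 sit lower in endoderm, mesoderm and the overexpression clones than in neural cells, while Am4493 stays above 0.90 in every library.

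Directed differentiation to endoderm and mesoderm asked whether methylation differs between the pluripotent state and the germ layers. Gm4469 of the A-loop and Um4276 fell in both germ layers, and Gm4469 had the largest mean difference of the 5. Cm4426, Gm4464 and Am4493 fell in mesoderm and missed the threshold in endoderm.

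At Gm4469 the 12 pluripotent libraries had a lowest score of 0.934, a median of 0.954 and a highest of 0.971. The 9 endoderm libraries had 0.706, 0.889 and 0.904, and the 9 mesoderm libraries 0.674, 0.824 and 0.928. Every germ layer library thus lay below every pluripotent library.

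In endoderm the indexes 2, 4 and 6 gave Gm4469 scores of 0.901, 0.721 and 0.871 in H9, 0.889, 0.706 and 0.895 in HUES4, and 0.901, 0.768 and 0.904 in KOLF2. In mesoderm they gave 0.789, 0.674 and 0.814 in H9, 0.928, 0.824 and 0.873 in HUES4, and 0.915, 0.818 and 0.922 in KOLF2. The index 4 library was the lowest of its sample in all 6. In undifferentiated H9 index 4 gave 0.965, the highest of the 6 libraries, whereas in both overexpression clones, described further on, it gave the lowest. Undifferentiated HUES4 and KOLF2 had no library of index 4.

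Fitted on sample means with the line as a block, limma gave Gm4469 a difference of -0.116 ± 0.0241 (SE, 3 lines; adjusted p = 0.00456) in endoderm and of -0.116 ± 0.0241 (adjusted p = 0.00487) in mesoderm. The lines H9, HUES4 and KOLF2 differed by -0.118, -0.128 and -0.103 in endoderm, and by -0.191, -0.0830 and -0.0755 in mesoderm. Divided by the upper quartile, the values were -0.0963 (limma, adjusted p = 0.0162) and -0.0951 (adjusted p = 0.0169).

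Against the 3 undifferentiated H9 libraries of the same indexes, Gm4469 differed by -0.117 in H9 endoderm (limma, adjusted p = 0.0977, and 0.0343 with the index as block). In H9 mesoderm it differed by -0.190 (limma, adjusted p = 0.0158, and 0.00679 with the block). Leaving out HUES4 raised the adjusted p of the endoderm difference to 0.0606 by limma, with a value of -0.111.

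Um4276, a target of SNORD41, had a lowest, median and highest score of 0.710, 0.894 and 0.912 in pluripotent libraries, 0.673, 0.803 and 0.868 in endoderm and 0.754, 0.830 and 0.848 in mesoderm. The low 0.710 was the index 6 library of H9, and the next lowest pluripotent library scored 0.842. Of the 18 germ layer libraries, 3 lay above that value, at 0.846, 0.848 and 0.868. The lowest endoderm values, 0.714, 0.673 and 0.683, were all of index 6.

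By limma Um4276 fell by 0.102 ± 0.0172 (SE; adjusted p = 0.00199) in endoderm, and in mesoderm it fell by 0.0648 ± 0.0172 (adjusted p = 0.0136). Against H9 libraries of the same indexes the differences were smaller, -0.0665 in endoderm (adjusted p = 0.361, and 0.164 with the index as block) and -0.00634 in mesoderm (adjusted p = 0.911), both by limma. The index and the germ layer cannot be told apart in HUES4 and KOLF2, whose undifferentiated libraries carry the other set.

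Cm4426, a target of both SNORD49 genes, fell by 0.0620 ± 0.0136 (SE) in mesoderm (limma, adjusted p = 0.00598) and differed by -0.0371 ± 0.0136 in endoderm (adjusted p = 0.0548). Its libraries ran from 0.904 to 0.980 in pluripotent cells, from 0.862 to 0.943 in endoderm and from 0.847 to 0.919 in mesoderm. The ranges overlapped. Against H9 libraries of the same indexes it differed by -0.0595 in endoderm (limma, adjusted p = 0.0287) and by -0.0440 in mesoderm (adjusted p = 0.0656, and 0.0269 with the index as block).

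Gm4464, a target of SNORD69, fell by 0.0378 ± 0.00929 (SE) in mesoderm (limma, adjusted p = 0.00999) and differed by -0.0232 in endoderm (adjusted p = 0.0715), and the endoderm sign turned to 0.00238 after division by the upper quartile. Am4493, a target of SNORD29, fell by 0.0142 ± 0.00380 in mesoderm (adjusted p = 0.0136), but after that division it was higher by 0.0146 (adjusted p = 0.00847). In endoderm its difference of -0.00712 (adjusted p = 0.148) likewise turned to 0.0205 (adjusted p = 0.00225). Whether these rises are more than the effect of the division itself was not tested. Against H9 libraries of the same indexes neither passed in mesoderm, with Gm4464 at -0.0261 (limma, adjusted p = 0.410, and 0.224 with the index as block) and Am4493 at -0.0153 (adjusted p = 0.374, and 0.176). Am4493 also missed the threshold in mesoderm with any 1 line left out. Of the 5 falls in mesoderm, the division left the one at Gm4469 past the threshold in the same direction.

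In counts, 2 of 5 sites fell in endoderm, where limma called 43% of 107 tested sites as falling, and 5 of 5 fell in mesoderm, where 47.7% fell. The median difference was -0.0371 in endoderm and -0.0620 in mesoderm, against -0.0305 and -0.0330 over all tested sites. Of the other 15 sites of 28S rRNA above 4000, 9 fell in endoderm and 8 in mesoderm, with 1 rising in each. Without H9 endoderm had 4 calls among the 5 and without HUES4 1, and mesoderm had 1 without HUES4 and 1 without KOLF2, both at Gm4469. The calls over all 107 sites moved too. With 1 line left out they ran from 34 to 72 in endoderm and from 33 to 71 in mesoderm, against 50 and 55 with all lines. Mesoderm against endoderm gave 0 of the 5 by limma, also at an unadjusted p below 0.05, with 2.8% of all sites called. Without H9 Cm4426 passed there, at -0.0451 (adjusted p = 0.0439). The difference at Gm4469 was 2.97e-05 ± 0.0241 (SE), and the lines went opposite ways, with -0.0722 in H9, 0.0450 in HUES4 and 0.0273 in KOLF2. H9 mesoderm carried another L number than mesoderm of HUES4 and KOLF2, so line and L number cannot be told apart there.

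**Figure D2:**
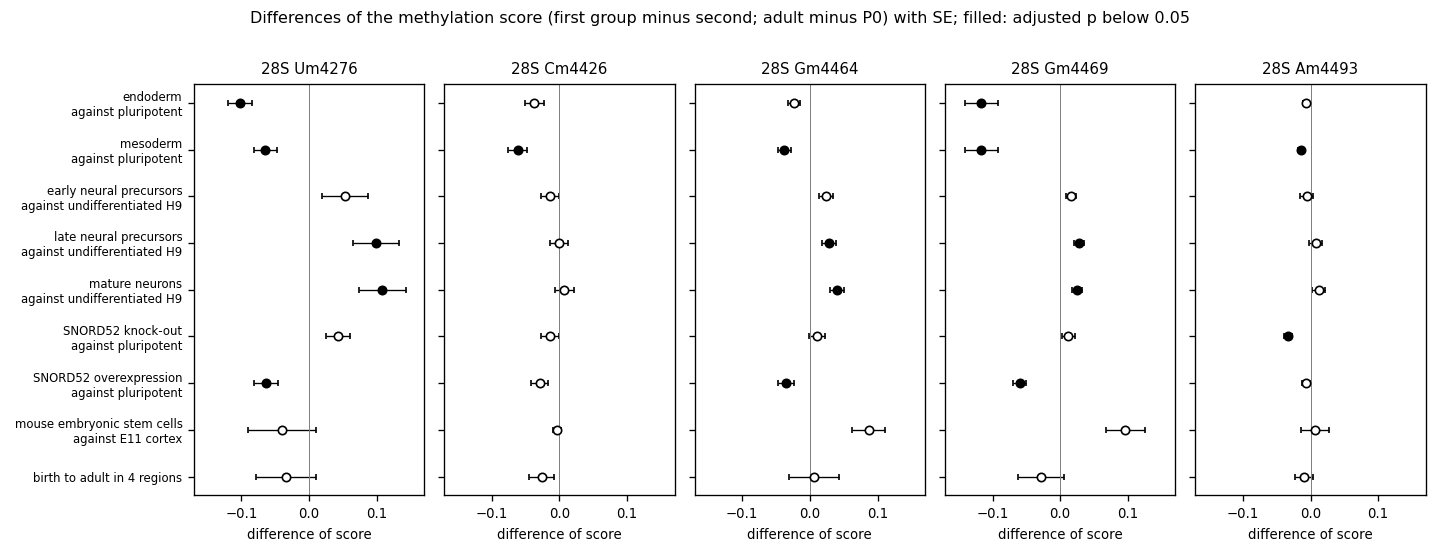
Difference in methylation score (fraction, with bars of 1 SE) of each of the 5 sites in the human and mouse comparisons that have a signed difference. Filled points passed an adjusted p of 0.05 by limma, and Gm4469 has the lowest points in endoderm and mesoderm, at -0.116 in both.

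The score adds read starts (5′ ends) and read stops (3′ ends), as the deposited counts assign them to a site, and both can be scored apart. At Gm4469 the fall in the germ layers lay in the 3′ ends. The 3′ score had a lowest, median and highest value of 0.920, 0.945 and 0.979 in the pluripotent libraries, 0.466, 0.790 and 0.851 in endoderm, and 0.462, 0.710 and 0.890 in mesoderm. The 5′ score had 0.948, 0.956 and 0.969, then 0.952, 0.965 and 0.975, and then 0.956, 0.976 and 0.981. The groups were apart in the 3′ score and overlapped in the 5′ score.

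In endoderm the 3′ score of Gm4469 fell by 0.241 ± 0.0419 (SE; limma, adjusted p = 0.00422), while the 5′ score differed by 0.00824 (adjusted p = 0.323). In mesoderm the 3′ score fell by 0.217 ± 0.0419 (adjusted p = 0.00472), and the 5′ score differed by 0.0133. Tested as a measure of its own, the 5′ minus the 3′ score rose by 0.249 in endoderm (limma, adjusted p = 0.00385) and by 0.230 in mesoderm (adjusted p = 0.00540). The 3′ score passed at 53.3% of all tested sites in endoderm and 56.1% in mesoderm, and the gap at 43.9% and 33.6%.

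As counts, the index 4 library of undifferentiated H9 had 61 5′ ends and 27 3′ ends at Gm4469, with a neighbour mean of 2485. The index 4 library of H9 endoderm had 37 and 795, with a neighbour mean of 2982. In this pair fewer 5′ ends and far more 3′ ends were counted at the base in endoderm. Index 4 was the highest undifferentiated H9 library and the lowest H9 endoderm library at Gm4469, so no same-index pair lay further apart. What sets the 3′ ends apart was not tested.

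Gm4464, 5 nucleotides upstream, moved the same way and less. Its 3′ score fell by 0.0651 ± 0.0139 (SE) in endoderm (limma, adjusted p = 0.00741), and in mesoderm it fell by 0.0834 ± 0.0139 (adjusted p = 0.00315), with no call in its 5′ score. The opposite was seen at Um4276, where the 5′ score fell by 0.198 ± 0.0324 in endoderm (limma, adjusted p = 0.00634; 35.5% of sites passed in the 5′ score) and the 3′ score differed by -0.0319 (adjusted p = 0.208). There the 5′ minus the 3′ score fell by 0.166 (adjusted p = 0.00660).

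Um4468, the base before Gm4469, did not share the loss in 3′ ends. Its 3′ score was 0.937 to 0.950 in the 3 endoderm samples and 0.910 to 0.930 in the pluripotent samples, and its 5′ score was 0.803 to 0.838 against 0.890 to 0.924. The whole score of Um4468 fell by 0.0330 in endoderm (limma, adjusted p = 0.0468) and differed by -0.00882 in mesoderm (adjusted p = 0.512). By these means both bases of the A-loop had lower scores in endoderm, Gm4469 in its 3′ ends and Um4468 in its 5′ ends. The call at Um4468 was close to the threshold. In HUES4 and KOLF2 the index and the germ layer cannot be told apart, so a shared loss in the A-loop was not shown.

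The neural series of H9 asked how methylation moves from pluripotent cells to neurons. Um4276, Gm4464 and Gm4469 rose in late neural precursors and in mature neurons, and Um4276 rose most. Cm4426 and Am4493 did not pass in either. With 1 sample per stage, the libraries were the units, and the p-values measure the spread between libraries of a sample.

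At Um4276 the 6 undifferentiated H9 libraries had a lowest score of 0.710, a median of 0.899 and a highest of 0.912. Early precursors had 0.931, 0.951 and 0.880, late precursors 0.968, 0.966 and 0.965, and mature neurons 0.983, 0.967 and 0.977. All late precursor and neuron libraries lay above all undifferentiated ones, and the early precursor library of index 6 lay among them.

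Um4276 rose by 0.0988 ± 0.0346 (SE) in late precursors (limma, adjusted p = 0.0347) and by 0.108 ± 0.0346 in mature neurons (adjusted p = 0.0221). Against the 3 H9 libraries of the same indexes the rises were 0.0727 (limma, adjusted p = 0.00181) and 0.0819 (adjusted p = 0.000979). In early precursors it differed by 0.0531 (adjusted p = 0.320), and against the same indexes by 0.0792, with an adjusted p by limma of 0.288 without and of 1.51e-06 with the index as block. Those 3 paired differences stood on 1 sample of each stage.

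Scored apart, the rise of Um4276 passed in the 5′ ends. Its 5′ score rose by 0.145 ± 0.0175 (SE; limma, adjusted p = 1.25e-06) in late precursors and by 0.168 ± 0.0175 (adjusted p = 1.96e-07) in neurons, from a mean of 0.788 in undifferentiated H9 to 0.933 and 0.955. The 5′ score passed at 63.6% of all tested sites in late precursors and at 67.3% in neurons. Its 3′ score differed by 0.0918 ± 0.0432 (adjusted p = 0.159) in late precursors and by 0.0952 ± 0.0432 (adjusted p = 0.145) in neurons. The 5′ minus the 3′ score did not pass either, at 0.0533 (adjusted p = 0.484) and 0.0725 (adjusted p = 0.393), so a difference between the ends was not shown. In the 3′ score 0 of the 5 passed at either stage by limma, where 18.7% and 16.8% of all sites did, with 0 and 2 at an unadjusted p below 0.05.

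At Gm4464 the undifferentiated H9 libraries ran from 0.902 to 0.941 around a median of 0.930, late precursors had 0.962, 0.934 and 0.962, and mature neurons 0.972, 0.957 and 0.965. The neurons lay above all undifferentiated libraries, and the late precursors overlapped them. It rose by 0.0280 ± 0.0104 (SE; limma, adjusted p = 0.0436) in late precursors and by 0.0397 ± 0.0104 (adjusted p = 0.00631) in neurons.

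At Gm4469 the undifferentiated H9 libraries ran from 0.934 to 0.965 around a median of 0.946, late precursors had 0.985, 0.970 and 0.975, and mature neurons 0.980, 0.972 and 0.971. Both stages lay above all undifferentiated libraries. It rose by 0.0272 ± 0.00729 (SE; limma, adjusted p = 0.00754) and by 0.0248 ± 0.00729 (adjusted p = 0.0142), and with the index as block among the same indexes the adjusted p was 0.0613 and 0.0717. After division by the upper quartile the neuron value was 0.0138 (adjusted p = 0.131), and Gm4464 in late precursors was 0.0201 (adjusted p = 0.152). Against the same indexes Gm4464 in late precursors was 0.0298 (adjusted p = 0.121), and its call there was kept in 11 of 25 alternatives.

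In counts, 3 of 5 sites rose in late precursors, where 29.9% of 107 sites rose by limma, and 3 of 5 rose in neurons, where 34.6% rose. Without the index 1 library of late precursors 0 of 5 passed there, and without that of index 5 only Gm4469. Without the index 1 library of neurons only Gm4464 passed. In early precursors limma called 0 of 5, with 2 at an unadjusted p below 0.05 and 32.7% of all sites called in either direction, and without the index 4 library of undifferentiated H9 Gm4469 passed at 0.0196 (adjusted p = 0.0427). It also passed there after division by the upper quartile, at 0.0198 (adjusted p = 0.0374), as did Cm4426 with the index as block, at -0.0230 (adjusted p = 0.0358). The median difference of the 5 was 0.0272 in late precursors and 0.0248 in neurons, against 0.0130 and 0.0159 over all tested sites. Of the other 15 sites above 4000, 3 rose and 2 fell in late precursors, and 4 rose and 3 fell in neurons. Um4468 rose with its A-loop neighbour, by 0.0526 in late precursors (limma, adjusted p = 0.000288) and by 0.0563 in neurons (adjusted p = 0.000155).

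The edited lines were set against the 3 unedited pluripotent lines, to see whether the sites moved when SNORD52, which guides none of the 5, was lost or overexpressed. Am4493 fell in the knock-out clones, and Um4276, Gm4464 and Gm4469 fell in the overexpression clones. Each group holds 2 clones, and the 3 groups share 1 estimate of spread. Fits against H9 libraries of the same indexes had libraries as units, and their p-values measure the spread between libraries.

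At Am4493 indexes 2, 4 and 6 gave 0.965, 0.965 and 0.909 in the first and 0.969, 0.971 and 0.920 in the second knock-out clone. The unedited libraries had a lowest score of 0.944, a median of 0.985 and a highest of 0.992. The 0.944 was the index 6 library of H9, and it was the only unedited library below any of the knock-out libraries of indexes 2 and 4. Am4493 fell by 0.0336 ± 0.00604 (SE; limma, adjusted p = 0.000504), and this was 1 of 5 where 18.7% of 107 sites fell. Against H9 libraries of the same indexes it differed by -0.0218 (limma, adjusted p = 0.269, and 0.111 with the index as block).

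At Um4276 the knock-out libraries had 0.950, 0.937 and 0.884 in the first and 0.942, 0.942 and 0.884 in the second clone. The indexes 2 and 4 lay above all unedited libraries, whose highest was 0.912. The difference was 0.0432 ± 0.0179 (SE; limma, adjusted p = 0.0695), and against H9 libraries of the same indexes 0.0814, with an adjusted p of 0.306 without and 0.0291 with the index as block. After division by the upper quartile it passed (limma, adjusted p = 0.0489).

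In the overexpression clones Gm4469 scored 0.922, 0.833 and 0.925 in the first and 0.930, 0.821 and 0.945 in the second. With the exception of 0.945, all lay below the lowest unedited library, at 0.934. Gm4469 fell by 0.0599 ± 0.00982 (SE; limma, adjusted p = 0.000105), again in the 3′ score, which fell by 0.120 ± 0.0138 (adjusted p = 0.000873; 45.8% of sites passed), while the 5′ score differed by 0.00539. Against H9 libraries of the same indexes the difference was -0.0523 (limma, adjusted p = 0.0878, and 0.0351 with the index as block).

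Um4276 fell by 0.0632 ± 0.0179 (SE; limma, adjusted p = 0.00752) with overexpression, from libraries of 0.896, 0.884 and 0.732 in the first and 0.886, 0.869 and 0.633 in the second clone. The index 6 libraries were the low ones, and the rest overlapped the unedited libraries. Against H9 of the same indexes Um4276 differed by -0.0249 (adjusted p = 0.734), and after division by the upper quartile by -0.0406 (adjusted p = 0.0913). Gm4464 fell by 0.0354 ± 0.0118 (limma, adjusted p = 0.0187), and after that division it differed by -0.00926 (adjusted p = 0.464). Against H9 of the same indexes Gm4464 differed by -0.0160 (limma, adjusted p = 0.374). Without KOLF2 or without the first overexpression clone Gm4464 missed the threshold (adjusted p = 0.0649 and 0.167), and without the second Um4276 did, at -0.0425 (adjusted p = 0.197).

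With overexpression 3 of 5 sites fell, where 46.7% of 107 sites fell by limma, and the median difference was -0.0354 against -0.0276 over all tested sites. Cm4426 differed by -0.0290 (limma, adjusted p = 0.0656), and by -0.0406 against the same indexes (adjusted p = 0.0507, and 0.00636 with the index as block). Am4493 differed by -0.00648 (adjusted p = 0.386) and was higher by 0.0226 after division by the upper quartile (adjusted p = 0.00229). The part of the division in that rise was not tested. The knock-out and overexpression comparisons share the 3 unedited lines, as both germ layers do.

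In mouse cortex the question was how methylation moves as the tissue matures from E11 to the adult. Um4276, Gm4464 and Gm4469 rose along the 7 stages, and at each of them the largest step between neighbouring stages lay between E11 and E12.5. Um4276 and Gm4464 rose further from E12.5 to P0, and Gm4469 did not pass there.

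At Um4276 the E11 libraries scored 0.697, 0.621 and 0.633, those of E12.5 0.964, 0.960 and 0.968, and those of P0 0.994, 0.988 and 0.993. The adult libraries of indexes 2, 4 and 6 scored 0.965, 0.952 and 0.865. E11 lay far below all others, and the adult index 6 library was the next lowest.

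At Gm4464 the E11 libraries scored 0.778, 0.750 and 0.823, with a mean of 0.784, and the mean then went through 0.914 at E12.5, 0.948 at E14, 0.956 at E15.5, 0.969 at E17, 0.971 at P0 and 0.973 in the adult. The 3 libraries of E12.5, from 0.891 to 0.937, lay below those of every later stage. At Gm4469 E11 scored 0.903, 0.798 and 0.895, all 15 libraries from E12.5 to P0 lay between 0.986 and 0.999, and the adult libraries scored 0.990, 0.991 and 0.988.

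The slope per stage was 0.0321 ± 0.0104 (SE; limma, adjusted p = 0.0120) at Um4276, 0.0251 ± 0.00475 (adjusted p = 0.000171) at Gm4464 and 0.0132 ± 0.00442 (adjusted p = 0.0151) at Gm4469. Cm4426 had a slope of 0.00324 (adjusted p = 0.0524) and Am4493 of 0.00353 (adjusted p = 0.135), and both turned negative after division by the upper quartile, at -0.00506 (adjusted p = 0.00987) and -0.00469 (adjusted p = 0.0157). Whether these falls are more than the effect of the division was not tested. That division left Gm4469 at 0.00589 (adjusted p = 0.0609). The 3 rising of 5 compare with 63.9% of 108 tested sites rising, and the median slope of 0.0132 with 0.0120 over all sites. Of the other 15 sites above 4000, 10 rose and 1 fell. Without the index 6 library of E11 only Gm4464 passed, with Um4276 at 0.0238 (limma, adjusted p = 0.0539) and Gm4469 at 0.0114 (adjusted p = 0.0501), and without the index 6 library of the adult all 5 passed.

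Index and stage overlap here, since E11 and the adult carry indexes 2, 4 and 6 and the stages between carry 1, 3 and 5. From E12.5 to P0 alone, on 1 index set, Gm4464 rose by 0.0135 per stage (limma, adjusted p = 0.000205) and Um4276 by 0.00684 (adjusted p = 4.30e-05), while Gm4469 had a slope of -0.000333 (adjusted p = 0.599). Without E11, Gm4464 kept a slope of 0.0107 (adjusted p = 0.000324), and the slopes of Um4276 and Gm4469 were -0.00382 and -0.00118. The E11 samples also had the lowest median over all tested sites, and its part in the E11 values was not tested.

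**Figure D3:**
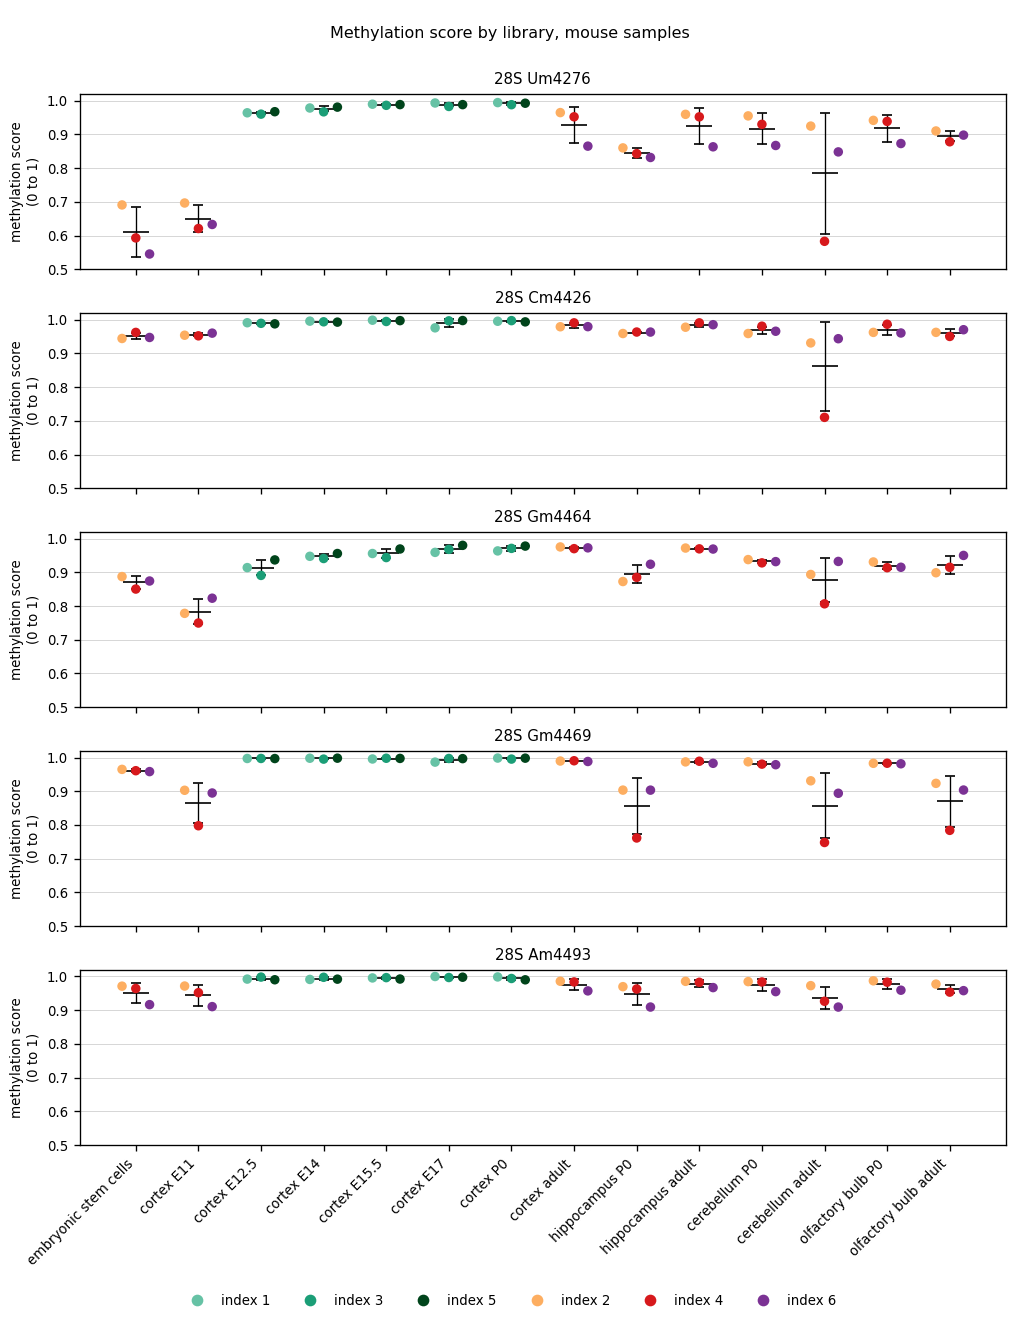
Methylation score (fraction, vertical axis) of the 5 sites in each mouse sample, with 1 point per library and a bar at the sample mean. Gm4464 climbs through the cortex stages, from a mean of 0.784 at E11 to 0.973 in the adult, and Gm4469 is low in E11 cortex, P0 hippocampus, adult cerebellum and adult olfactory bulb.

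In the other regions of the brain Gm4469 had no common course from birth to adult. Its libraries of indexes 2, 4 and 6 scored 0.903, 0.762 and 0.903 in P0 hippocampus and 0.987, 0.989 and 0.983 in adult hippocampus. In cerebellum they scored 0.987, 0.981 and 0.979 at P0 and 0.931, 0.748 and 0.894 in the adult. In olfactory bulb they scored 0.983, 0.983 and 0.982 at P0 and 0.924, 0.784 and 0.904 in the adult. Within each region the ages did not overlap, and the low age was P0 in hippocampus and the adult in the other pair.

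The change from P0 to adult at Gm4469 was thus 0.130 in hippocampus, -0.125 in cerebellum, -0.112 in olfactory bulb and -0.00788 in cortex. That the change differs between the 4 regions passed at Gm4469 (limma, adjusted p = 0.00301), Gm4464 (adjusted p = 0.00921) and Am4493 (adjusted p = 0.0483), as it did at 66.7% of 108 sites. Libraries were the units of this test, with 1 sample per region and age. Its p-values measure the spread between libraries of a sample. In the 3 regions with the same indexes at both ages, where all newborn libraries carried 1 L number and all adult ones another, the adjusted p was 0.00617, 0.0166 and 0.0469. Gm4464 changed by 0.0763 in hippocampus, -0.0550 in cerebellum, 0.00146 in olfactory bulb and 0.00191 in cortex.

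The same 3 samples with low Gm4469 had low median scores over all tested sites, 0.905 in P0 hippocampus, 0.884 in adult cerebellum and 0.924 in adult olfactory bulb, against 0.952 to 0.965 in the other samples of these regions. In each of the 3 the low values lay in the 3′ ends, whose mean scores at Gm4469 were 0.738, 0.749 and 0.767, while the 5′ means were 0.988, 0.988 and 0.992. The index 4 library of cerebellum had 15 5′ ends and 48 3′ ends at Gm4469 at P0, with a neighbour mean of 3233, and 8 and 344 in the adult, with a neighbour mean of 1397. Among the adult cerebellum libraries index 4 was the lowest at this site. The part of the general level in these values was not tested.

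Across the 4 adult regions Gm4469 differed by 0.132 between the highest and the lowest mean (limma F test, adjusted p = 0.0465) and Gm4464 by 0.0952 (adjusted p = 0.0372), which made 2 of 5 where 46.3% of sites differed. After division by the upper quartile neither passed, with adjusted p of 0.152 and 0.261. Across P0 hippocampus, cerebellum and olfactory bulb Gm4469 differed by 0.126 (adjusted p = 0.0177), 1 of 5 where 34.3% differed, and after the division its adjusted p was 0.0773. Without index 2 or without index 6, 0 of 5 passed across the adult regions. In the newborn regions 0 passed without index 2 and 2 without index 6, which were Um4276 and Am4493. The tests across adult and across newborn regions had libraries as units, with 1 sample per region. Over the 4 regions paired from birth to adult, limma called 0 of 5, and none reached an unadjusted p below 0.05, with 3.7% of sites called.

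Um4276 ranged in the adult from a mean of 0.785 in cerebellum to 0.928 in cortex (adjusted p = 0.241). In adult cerebellum its libraries scored 0.925, 0.583 and 0.848, and the index 4 library had a 3′ score of 0.138. Cm4426 scored 0.931, 0.710 and 0.944 there, again with the low value in index 4. Without the index 4 libraries the adult range of Um4276 was 0.0286 (adjusted p = 0.911), that of Gm4469 was 0.0765 (adjusted p = 0.0128), and that of Gm4464 was 0.0610 (adjusted p = 0.0630). Cm4426 passed by limma without them, with a range of 0.0441 (adjusted p = 0.0136), against 0.123 (adjusted p = 0.107) with them.

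Mouse embryonic stem cells were compared with E11 cortex, both of indexes 2, 4 and 6. Each was 1 sample, so the libraries were the units, and the p-values measure the spread between them. Um4276 was low in both, with 0.691, 0.593 and 0.545 in stem cells and 0.697, 0.621 and 0.633 in E11, and the libraries overlapped. Gm4469 scored 0.965, 0.961 and 0.958 in stem cells, all above the E11 libraries, and Gm4464 scored 0.887, 0.850 and 0.874, also all above.

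By limma 0 of 5 passed, where 24.1% of 108 sites did, and 2 had an unadjusted p below 0.05. These were Gm4469, with a difference of 0.0962 ± 0.0285 (SE; adjusted p = 0.0528), and Gm4464, with 0.0869 ± 0.0246 (adjusted p = 0.0505). With the index as block their adjusted p was 0.0432 and 0.0334. After division by the upper quartile Cm4426 passed, at -0.0460 (limma, adjusted p = 0.00631). Leaving out any 1 of the E11 libraries gave 1 call, as without index 6 at Gm4464 (0.107, adjusted p = 0.0218). The difference at Um4276 was -0.0404 ± 0.0504 (adjusted p = 0.558).

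**Figure D4:**
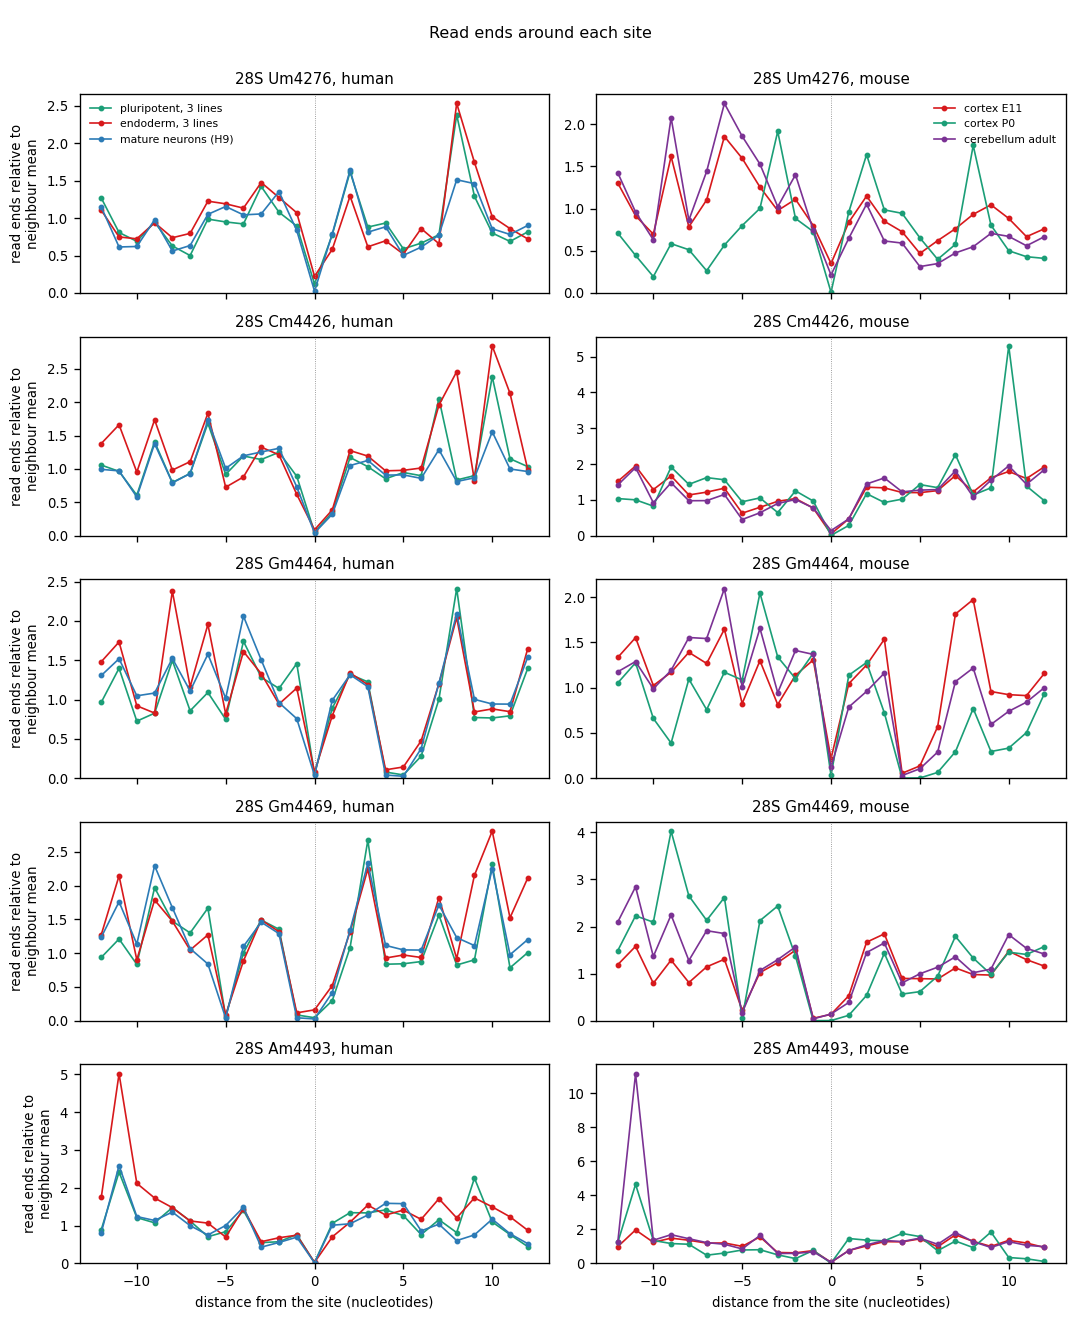
Read ends relative to the neighbours' weighted mean (vertical axis) at each nucleotide from 12 before to 12 after the 5 sites, as means of samples. The dip at the centre is the methylated base, and at Gm4469 a further dip 1 nucleotide before it is Um4468.

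Libraries of the same index deviated alike at these sites. Among the 21 samples with indexes 2, 4 and 6, the index 6 library was the lowest at Um4276 in 18 and at Am4493 in 15. At Gm4469 the index 4 library was the lowest in 12 and index 2 in none. Which step of the library preparation this belongs to was not tested.

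The catalogued sites whose sample means ran most like those of the 5 were ranked by Spearman's correlation, as a description over samples that share depth, index and general level. Over the 16 human samples Gm4469 ran most like 28S Cm2811 (0.971), 18S Um121 (0.953) and 18S Am99 (0.909). Um4276 ran most like 18S Um172 (0.932), 18S Am99 (0.900) and Gm4469 (0.897), the only other one of the 5 in these human ranks. The median over all other sites was 0.694 for Gm4469 and 0.653 for Um4276.

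Cm4426 ran most like 18S Um627 (0.885), 28S Cm2338 (0.882) and 18S Cm1391 (0.874), and Gm4464 most like 18S Gm683 (0.926), 18S Gm509 (0.900) and 18S Am468 (0.897). Am4493 ran most like 28S Am389 (0.965), 28S Gm2411 (0.900) and 28S Am391 (0.885), against a median of 0.301. Over the 14 mouse samples the medians were higher, from 0.692 at Gm4464 to 0.877 at Am4493. There Um4276 ran most like Um4468 (0.996), 18S Um121 and 28S Am3703 (0.991 each), and Cm4426 most like 28S Am3703 (0.974), 18S Am166 (0.965) and 28S Um2824 (0.960).

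In mouse Gm4464 ran most like 18S Am99 and 28S Gm3923 (0.965 each) and 18S Am590 (0.943). Gm4469 ran most like 18S Am484 (0.947), 28S Cm3787 (0.943) and 18S Gm509 (0.938), and Am4493 most like 18S Gm1328 (0.982), 18S Um1326 and 28S Gm3771 (0.974 each). For none of the 5 did the 3 nearest sites in human and in mouse have a site in common.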

How the data were processed

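Read ends per rRNA position were deposited by the authors as raw counts of 5′ ends, 3′ ends and their sum, unscaled. Methylation scores were deposited as a fraction, called a percentage per the file headers, and recomputing them from the counts gave the same values within 5e-13 over 10137 values. The aligner and the counting program are named by no source used here.

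The 109 catalogued sites were placed on the deposited sequences by base, score pattern and alignment. A site was tested if its mean score was at least 0.2 and its neighbours averaged at least 50 read ends, which kept 107 sites in human and 108 in mouse. Differences in score were tested in limma (3.58.1; R 4.3.3) with a trended prior and Benjamini-Hochberg adjustment at 0.05 over all tested sites. Germ layers, edited clones and the birth-to-adult comparison used 1 mean per sample, with cell line or region as block where they pair. The other comparisons, and the test whether the change from birth to adult differs between regions, used libraries as units, whose spread may be technical. So did the fits against H9 libraries of the same indexes. An edgeR (4.0.16) quasi-likelihood fit of the counts was an alternative, beside other neighbour numbers, filters, scalings, end kinds, left-out libraries and fits within index sets. The index-blocked H9 fits of the germ layers and clones, and the 5′ minus 3′ score, were added after seeing the data. Tested on simulated data, a shift of 0.05 was recovered at 10 of 20 sites in the endoderm comparison and at 16 of 20 in the cortex slope, and a shift of 0.1 at 16 and 19. No unchanged site was called there. In early precursors 14 and 20 were recovered, with 0 and 3 unchanged sites called. In the knock-out clones 19 were recovered at either shift, with 5 and 0 unchanged sites called. The simulated noise followed the spread between libraries of a sample, with none added between samples, lines or indexes.

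Index sequences, read from the deposited files, pair libraries of different samples. Counting errors cover counting only. The 5 sites, the comparison list and the rule of naming for each the 3 sites with the most similar sample means were chosen with earlier results of these data known. Analyses used Python 3.11.15 with numpy 2.4.6 and pandas 2.3.3.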

Additional observations from a re-analysis of the deposited data

Results flagged for a closer look

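In undifferentiated H9 the index 6 library lay apart from the other 5 libraries at Am4493, with 0.944, and at Um4276, with 0.710. The gap to the nearest library was 0.768 and 0.822 of the whole range, above the Dixon critical value of 0.625 for 6 libraries. Such a gap arises by chance in about 5% of groups.

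The change from birth to adult differed between the 4 brain regions at Gm4464 (limma, adjusted p = 0.00921), Gm4469 (adjusted p = 0.00301) and Am4493 (adjusted p = 0.0483), 3 of 5 where 66.7% of all 108 tested sites passed. At Gm4469 the change was 0.130 in hippocampus and -0.125 in cerebellum, and at Am4493 it was 0.0311 and -0.0383.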

How the results depend on the processing

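Of 1235 alternative values of single sites, 1008 kept direction and side of the threshold, 110 lost the call, 68 gained one and 49 turned sign, and 184 of 247 counts of calls stayed within 1.5 times. Unless a value below shows why, the cause was not tested. Of 23 called values, 18 kept their call in 57.9% to 100% of their alternatives, and the other 5 in under 50%. These were Gm4469 and Gm4464 in adult regions, with 4 and 5 of 12, Am4493 in mesoderm, with 6 of 15, Gm4464 in late precursors, with 11 of 25, and Gm4464 in the overexpression clones, with 9 of 19. The counting error of a score reached 0.0301 in human and 0.0185 in mouse libraries, against a median SD between libraries of 0.0189 and 0.00983. In single values counting error thus exceeded the median spread.

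With 5′ ends alone the calls among the 5 were 1 in the cortex slope, 0 in adult regions, 2 in stem cells against E11, 1 in endoderm, 1 in mesoderm, 3 in early precursors, 3 in knock-out and 0 in overexpression clones. In the same order, the 5′ score passed at 42.6%, 38%, 31.5%, 35.5%, 24.3%, 57%, 22.4% and 38.3% of all tested sites. The 5′ sign turned at Gm4469 in endoderm (0.00824), mesoderm (0.0133), overexpression (0.00539) and stem cells (-0.0148), at Gm4464 in endoderm (0.000311), at Am4493 in stem cells (-0.00906) and early precursors (0.000261), and at Cm4426 from birth to adult (0.000632). With 3′ ends alone the calls were 0 in adult regions, 3 in newborn regions, and 0 in late precursors and in neurons. There the 3′ score passed at 1.85%, 37%, 18.7% and 16.8% of all tested sites. The 3′ sign turned at Cm4426 in stem cells (0.00824) and late precursors (0.00520), and at Gm4464 from birth to adult (-0.0146) and in knock-out clones (-0.000908).

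After division by the upper quartile the calls were 0 in adult regions, 0 in newborn regions, 1 in stem cells, 2 in mesoderm, 1 in early precursors and 2 in knock-out clones. Over all tested sites the calls went from 50 to 12 in adult regions and from 37 to 18 in newborn regions. The sign turned at Cm4426 in the cortex slope (-0.00506) and neurons (-0.00393), at Gm4464 in endoderm (0.00238), and at Am4493 in the cortex slope (-0.00469), stem cells (-0.0348), endoderm (0.0205), mesoderm (0.0146), late precursors (-0.00114) and overexpression (0.0226). The edgeR fit gave 2 calls in stem cells, 5 in endoderm, 2 in knock-out and 1 in overexpression clones. With 2 neighbours on each side there was 1 call each in adult regions, stem cells and late precursors, with a prior without a trend 0 in adult regions and 1 in stem cells, and with no minimum 1 in adult regions.

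In the cortex slope 1 call was left without E11, 5 were made without the adult, 5 with the index as a term and 5 in a test of any difference. Without E11 the slopes of Um4276, Cm4426, Gm4469 and Am4493 turned to -0.00382, -0.000982, -0.00118 and -0.00241, and from E12.5 to P0 alone Gm4469 had -0.000333. All 4 newborn regions together gave 4 calls.

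With H9 libraries of the same indexes, which are fewer samples, 1 call was left in endoderm, 1 in mesoderm, 0 in knock-out and 0 in overexpression clones, and 0 with each clone alone. Signs turned there at Cm4426 (0.0155) and Gm4469 (-0.0722) in mesoderm against endoderm, at Cm4426 in late precursors (0.00826), and at Am4493 with overexpression (0.00529), also with clone 1 (0.00165) and clone 2 (0.00894) alone. Libraries of the same index were paired by a replicate block, since they deviate together. The block gave 3 calls in newborn regions, 2 in stem cells, 2 in mesoderm and 2 in early precursors, moved no other count by over 1.5 times, and left the signs just given as they were. Without the block by line or region, Am4493 in mesoderm had an adjusted p of 0.0810 by limma, and the counts were 2 in endoderm, 4 in mesoderm and 0 from birth to adult.

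Leaving out 1 library, line, region or index gave 1 to 5 calls in the cortex slope, 0 to 2 in adult regions, 0 to 2 in newborn regions, 0 to 0 from birth to adult, 0 to 1 in stem cells, 1 to 4 in endoderm, 1 to 4 in mesoderm, 0 to 1 in mesoderm against endoderm, 0 to 1 in early precursors, 0 to 3 in late precursors, 1 to 3 in neurons, 1 to 1 in knock-out and 2 to 4 in overexpression clones. Over all tested sites it gave 44 to 86 calls in the cortex slope, 0 to 39 in adult regions and 1 to 36 in newborn regions. It gave 12 to 32 in stem cells, 34 to 72 in endoderm and 33 to 71 in mesoderm. In early precursors there were 30 to 39, in late precursors 29 to 47 and in neurons 32 to 50. Knock-out clones had 16 to 50 and overexpression clones 38 to 73. The values ranged from birth to adult from -0.0426 to 0.000490 at Cm4426, from -0.0172 to 0.0266 at Gm4464 and from -0.0815 to 0.00343 at Gm4469. They ranged in stem cells at Am4493 from -0.0111 to 0.0231, in mesoderm against endoderm at Gm4469 from -0.0225 to 0.0361, in early precursors at Am4493 from -0.0143 to 0.00737, and at Cm4426 from -0.00907 to 0.00818 in late precursors and from -0.000574 to 0.0132 in neurons.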
